A study of Mus musculus with 33 samples.

Results

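The cytoplasmic ribosomal protein genes encode the proteins that, together with ribosomal RNA, form the large and small subunits of the ribosome. They were followed here through the cell classes of the mouse hippocampal neurogenic niche. Rows were taken by symbol, as Rpl or Rps followed by a number, plus Rpsa, Rplp0, Rplp1 and Rplp2, without S6 kinases and pseudogene symbols. This gave 85 of 18853 gene rows, 51 for the large subunit and 34 for the small subunit. Of these, 73 were listed in every library and 76 (45 large, 31 small) had enough counts to be tested. Rpl10l, Rpl26, Rpl30, Rpl34, Rpl39l, Rpl3l, Rps27, Rps4l and Rps4y2 were not tested.

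The niche group held 31 libraries from 5 numbered experiments on wild-type C57BL/6 mice. Hippocampal tissue had been depleted of neurons, and live cells that did not stain for GluR1 or Cd24 had been sorted singly, so cells carrying Cd24, among them many neuroblasts, are under-represented by design. A further library came from niche cells of mice older than 12 months and another from hippocampal cells of Nestin-GFP mice, in which a promoter of the progenitor gene Nestin drives the reporter. Both single libraries are given as values without a test, and the sources used here do not give the ages of the other mice or the number of mice per experiment. All libraries were made by SORT-seq, which counts the 3′ ends of transcripts by molecular identifiers.

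Wells with at least 1000 transcripts were kept, which left 1285 niche cells (141 to 435 per experiment), 138 old niche cells and 315 Nestin-GFP cells. Median depth ran from 1943 transcripts per cell in experiment 5 to 12392 in experiment 4. Cells were clustered without the ribosomal protein genes on a random part of their transcripts and named from fixed markers, and the other part gave every level below. Each class carried its own markers. Astrocyte markers summed to 30312 to 47878 CPM (counts scaled to a fixed total of 1000000 transcripts per class and experiment) in astrocyte-like cells and to 802 to 2544 in neurogenic cells, while early neuroblast markers summed to 6739 to 9832 CPM in neurogenic cells and to at most 1549 CPM in precursor-like cells. "Neurogenic" here joins proliferating progenitor-like, early neuroblast-like and late neuroblast-like cells. Stem cell-like cells kept 21404 to 30999 CPM of astrocyte markers beside 5815 to 9786 CPM of stem cell markers.

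Ribosomal proteins are made in near equal amounts and are among the most abundant products of a growing cell. Their mRNAs start with a terminal oligopyrimidine tract, a cytosine followed by a run of pyrimidines, through which the mTOR pathway and the protein Larp1 control their translation. In the adult dentate gyrus, quiescent stem cells are known to make little protein, and protein synthesis rises when they leave quiescence and become progenitors and neuroblasts. The transcripts counted here do not measure translation.

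The bases around the start site of 6 of these genes are shown to let a reader see the tract that is known for the family. The 6 were picked after their values were seen, 3 with and 3 without the letters searched for, and they show no link between the letters and a change in level. Each line gives 15 bases before and 15 bases from the annotated start, in RefSeq's annotation of GRCm38.p6, read 5′ to 3′ on the gene's strand. Capitals mark the letters CTTT where they lie within 10 bases of the start.
Rpl12 (chr2:32961697-32961726, plus strand): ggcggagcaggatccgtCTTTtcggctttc
Rps9 (chr7:3704026-3704055, plus strand): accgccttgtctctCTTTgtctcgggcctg
Rps6 (chr4:86857353-86857382, minus strand): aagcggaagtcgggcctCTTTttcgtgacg
Rpl13 (chr8:123102335-123102364, plus strand): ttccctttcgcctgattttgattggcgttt
Rpl22l1 (chr3:28805493-28805522, plus strand): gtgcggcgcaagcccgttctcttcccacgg
Rpl7l1 (chr17:46782642-46782671, minus strand): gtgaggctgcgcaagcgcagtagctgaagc
By the same symbol rule, 64 annotated genes had such a window, 76 windows in all. These include Rpl32l, which is not among the 85 rows and had no CTTT in its window. CTTT lay within 10 bases of the start in 16 of the 76 windows (21.1%) on the gene's strand and in 5.26% on the other strand. Among 32851 windows of all genes the shares were 7.83% and 7.36%. A run of at least 8 pyrimidines touching the start was found in 32.9% of ribosomal protein windows and in 9.38% of all windows, and these runs can overlap the CTTT. The genes of mitochondrial ribosomal proteins had CTTT in 5.33% of their windows. As 16 of these 64 genes carried CTTT, most genes with a window that rose in the comparisons that follow did not carry it there. Annotated starts can be a few bases off, so a window without the letters says only that they are not in it.

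The summed share of transcripts in the ribosomal protein genes was higher in neurogenic cells than in astrocyte-like cells and in cells of the oligodendrocyte lineage in every niche experiment. Neurogenic cells held 7.06%, 7.92%, 6.11%, 6.83% and 8.86% of their transcripts in these genes in experiments 1 to 5 (7.36% ± 1.06, SD, n = 5). Astrocyte-like cells held 1.21%, 2.31%, 1.72%, 2.56% and 1.92% (1.95% ± 0.52), and oligodendrocyte precursor-like cells 2.15%, 2.97%, 2.53%, 3.40% and 2.59% (2.73% ± 0.47). The lowest neurogenic value lay above the highest value of both glial classes. Mature oligodendrocyte-like cells held 2.35%, 3.14% and 2.17% in experiments 1, 3 and 5, within the range of the precursors. Microglia-like cells, the resident immune cells of the brain, held 3.90%, 4.02%, 5.37%, 6.93% and 4.25% (4.90% ± 1.28) and so lay mostly between these classes and the neurogenic cells, but in experiment 4 their value was above the neurogenic one. Endothelial-like cells held 4.32% and 3.80% in experiments 2 and 5.

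**Figure D1:**
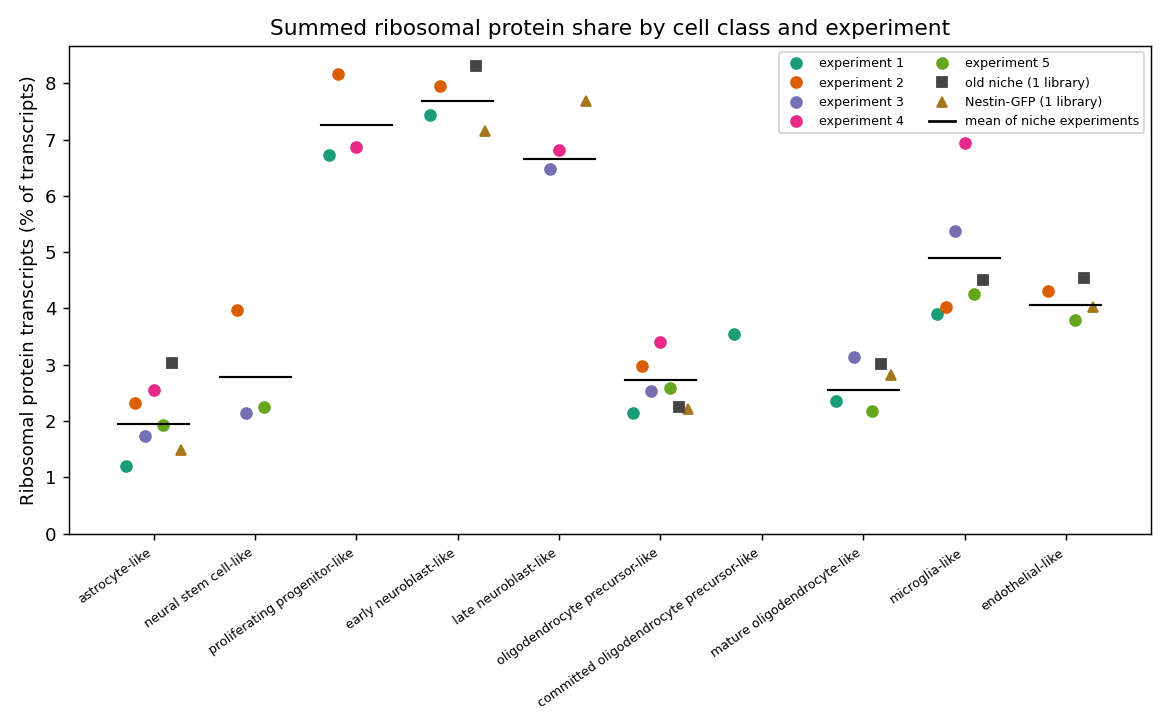
Share of transcripts in ribosomal protein genes (y axis, percent) for each cell class (x axis); circles are niche experiments with at least 5 cells of the class, squares the old library, triangles the Nestin-GFP library and black lines the mean over experiments. The 3 neurogenic classes lie between 6.48% and 8.31%, above every astrocyte-like, stem cell-like and oligodendrocyte lineage value.

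In both single libraries neurogenic cells held the highest share of the named classes. In the Nestin-GFP library the share was 7.44% in neurogenic cells, 2.14% in 3 stem cell-like cells, 1.49% in astrocyte-like, 2.22% in precursor-like and 2.82% in mature oligodendrocyte-like cells. In the old library it was 8.49% in neurogenic cells, 3.02% in 8 astrocyte-like cells, 2.25% in precursor-like, 3.01% in mature oligodendrocyte-like and 4.51% in microglia-like cells. The old astrocyte-like value exceeded all 5 niche experiments, and the old neurogenic value lay within them. All 8 old astrocyte-like cells fell into the first of 2 astrocyte-like clusters, while the niche cells were spread over both. Within that first cluster the niche experiments held 1.39% to 2.74% and the old library 3.02%. The age of these mice and the sort of their library cannot be told apart.

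Depth also differed between classes. Median transcripts per cell in experiments 1 to 5 were 1874, 2036, 3231, 15159 and 1848 in astrocyte-like cells and 4391, 8182, 5245, 14641 and 2853 in neurogenic cells. Precursor-like cells had 4314, 9163, 3829, 16709 and 3038. Their share of ribosomal protein transcripts was 2.02 to 3.41-fold lower than that of neurogenic cells of the same experiment. The part of depth in these shares was not tested. The plates of experiment 2 differed as well, with 8.56% in neurogenic cells on plate C and 6.54% on plate H, and 2.74% and 1.33% in astrocyte-like cells. Neurogenic cells stood above astrocyte-like cells on both plates.

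Along the path from stem cell to neuron, the step at which the ribosomal protein genes rose lay between stem cell-like and neurogenic cells. Stem cell-like cells held 3.97%, 2.13% and 2.25% in experiments 2, 3 and 5 (2.79% ± 1.02, SD, n = 3), and 1.91% in the 4 such cells of experiment 1. The ratio of neurogenic to stem cell-like share was 2.0, 2.89 and 3.93 in these 3 experiments. Single cells overlapped in experiment 2, from 1.78% to 7.59% in stem cell-like and from 3.31% to 13.4% in neurogenic cells. On plates C and H of that experiment, stem cell-like cells held 4.44% and 2.78% and neurogenic cells 8.56% and 6.54%. In groups of at least 5 cells, the stages after the stem cell lay in 1 common range. Only experiment 2 held at least 5 cells each of the stem cell-like, proliferating progenitor-like and early neuroblast-like classes. Most stages could thus be set side by side only across experiments. Proliferating progenitor-like cells held 6.72%, 8.16% and 6.86% in experiments 1, 2 and 4, early neuroblast-like cells 7.43% and 7.95% in experiments 1 and 2, and late neuroblast-like cells 6.48% and 6.82% in experiments 3 and 4. Smaller groups ranged more widely. In experiment 3, 2 proliferating progenitor-like cells held 4.59% and 2 early neuroblast-like cells 3.43%, between its stem cell-like and late neuroblast-like values. In experiment 5, 3 progenitor-like cells held 8.87%, 1 early neuroblast-like cell 10.87% and 2 late ones 7.45%. The 1 late neuroblast-like cell of experiment 2 held 3.31%. No experiment held at least 5 cells of both neuroblast stages, so these were not tested against each other. In the Nestin-GFP library, which held both, the share was 7.15% in 16 early and 7.69% in 24 late neuroblast-like cells.

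**Figure D2:**
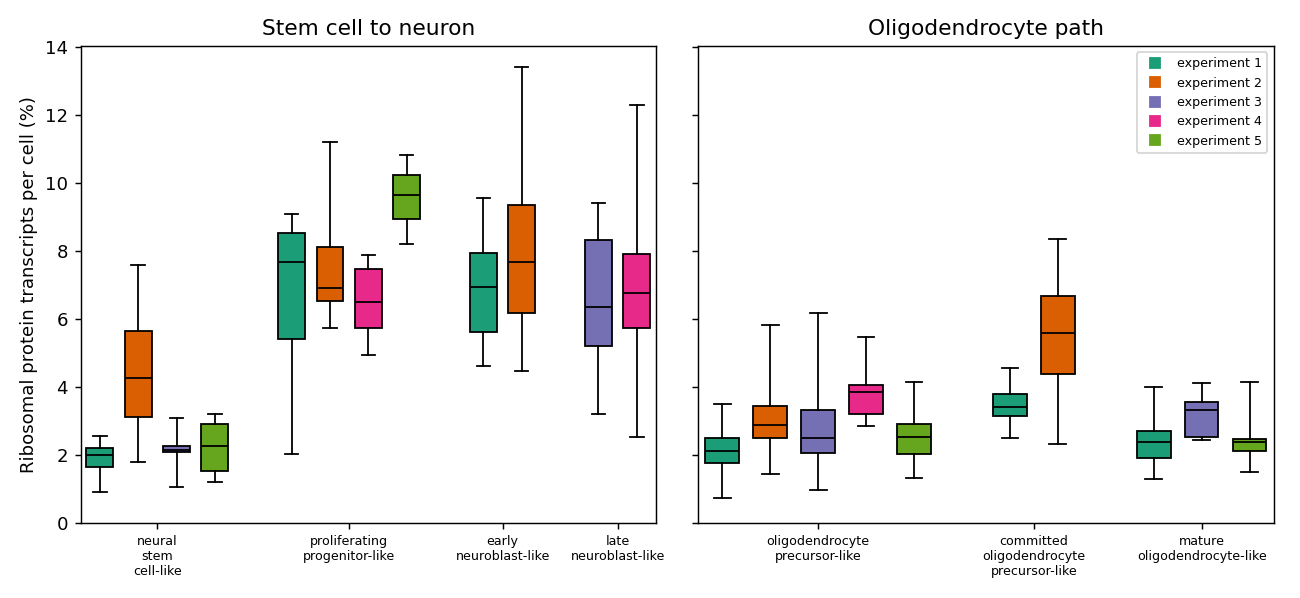
Share of transcripts in ribosomal protein genes per cell (y axis, percent) along the stem cell to neuron path (left) and the oligodendrocyte path (right), by class (x axis) and niche experiment (colour), for at least 3 cells; boxes span the quartiles, lines the median and whiskers the lowest and highest cell. The left panel shows a step in the medians after the stem cell-like class, with overlapping cells in experiment 2. The right panel shows low values at both ends of the oligodendrocyte path.

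Gene by gene, 65 of the 76 tested ribosomal protein genes were higher in neurogenic than in stem cell-like cells and 0 were lower (edgeR quasi-likelihood test, Benjamini-Hochberg adjusted p under 0.05), where 10.8% of all 6044 genes were higher and 10.8% lower. The median log2 fold change was 1.31 for the ribosomal protein genes and 0.18 for all genes tested. Of the 76, 71 were higher in each of the 3 experiments, which was not counted for all genes. Both subunits took part, with 37 of 45 large and 28 of 31 small subunit genes called. The call of Rplp2 is counted among these, although it was listed in 22 libraries only, had no count in any stem cell-like sample and stood at 22.8, 0 and 241 CPM in neurogenic cells of experiments 2, 3 and 5. In the same comparison, 7 of 15 genes of the dissociation response were lower and 0 higher. Their sum was 6193, 17516 and 1897 CPM in stem cell-like cells of experiments 2, 3 and 5 and 4979, 9903 and 4744 CPM in neurogenic cells, and its part in the result was not tested. The count of 65 was 42 with DESeq2, 33 without experiment as a block, 24 without cells that held markers of a second family, 29 without experiment 2 and 18 without experiment 3.

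Rpl5, which binds the small ribosomal RNA of the large subunit and, when unassembled, the p53 regulator Mdm2, changed the most among genes with counts in both classes. It stood at 469, 73.3 and 140 CPM in stem cell-like cells and at 1318, 1042 and 2489 CPM in neurogenic cells of experiments 2, 3 and 5. The stem cell-like values rest on 42, 3 and 2 transcripts in 25, 11 and 6 cells, so those of experiments 3 and 5 lie near the floor. In experiment 5 the neurogenic value rests on 31 transcripts in 6 cells. The groups did not overlap, and the log2 fold change was 2.38 ± 0.41 (SE, edgeR adjusted p = 9.1e-07). Rps6, the small subunit protein phosphorylated by the S6 kinases, stood at 458, 269 and 281 against 1234, 1144 and 2006 CPM. Rps9, of the small subunit, rose less (921, 442 and 843 against 1975, 1258 and 2007 CPM, log2 fold change 1.21 ± 0.37, edgeR adjusted p = 0.0085). The least changed were Rpl22l1 (0.26 ± 0.58), Rplp1 (0.59 ± 0.37) and Rps16 (0.60 ± 0.37), none of which passed the test. Rplp1, a protein of the stalk that recruits elongation factors, already stood at 1004, 419 and 632 CPM in stem cell-like cells.

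Against astrocyte-like cells, 73 of 76 ribosomal protein genes were higher in neurogenic cells and 0 lower, where 21% of all genes were higher and 18.8% lower. The median log2 fold change was 1.69, and 0.15 over all genes. Of the 15 dissociation response genes, 5 were higher in neurogenic cells and 0 lower, with sums of 4744 to 9903 CPM against 823 to 6913 CPM, and their part in the result was not tested. Small subunit genes had a median of 1.84 and large subunit genes 1.57, a difference that was not tested. Rplp0, the base of the stalk, stood at 175, 182, 121, 298 and 292 CPM in astrocyte-like cells and at 1622, 1364, 881, 928 and 1043 CPM in neurogenic cells of experiments 1 to 5 (log2 fold change 2.22 ± 0.31, edgeR adjusted p = 1.4e-10). Rps26, which lines the exit of the mRNA channel, rose from 160 ± 64 to 922 ± 289 CPM (SD, n = 5), and Rps24 from 284 ± 154 to 1439 ± 432 CPM. Rpsa, also known as the laminin receptor, was less even. It stood at 2126, 1201, 459, 572 and 3138 CPM in neurogenic cells, so experiments 3 and 4 lay far below 1 and 5, but each lay above astrocyte-like cells of the same experiment. Rpl7l1, Rpl22l1 and Rplp2 did not pass the test.

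When stem cell-like cells were set against astrocytes, no ribosomal protein gene was called. In simulated counts this comparison recovered 6.25% of 2-fold and 64% of 4-fold changes, so a 2-fold change of a single gene would seldom be called. Of the 76, 0 passed in either direction with edgeR, where 0.91% of all genes passed on the stem cell side and 2.08% on the astrocyte side, and 7 were higher at an unadjusted p under 0.05. The unadjusted 7, among them Rpl11, Rps19 and Rps24, had log2 fold changes from 0.80 to 0.98. The median of the 76 was 0.42 against -0.03 over all genes, and the summed share was 1.71, 1.24 and 1.17-fold higher in the former in experiments 2, 3 and 5. The 2 astrocyte-like clusters differed, with 2.74%, 2.36% and 2.38% in the first and 1.72%, 1.44% and 1.10% in the second. Stem cell-like cells, at 3.97%, 2.13% and 2.25%, lay above both clusters in experiment 2 and between them in experiments 3 and 5. The median of the 76 ran from -0.16 to 0.63 over the alternative settings. DESeq2 called none of these genes, and 2 were called with library size scaling or with only these classes in the fit. With library size scaling, the median of all genes shifted by 0.18 and 48.8% of all calls were higher in place of 30.4%.

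**Figure D3:**
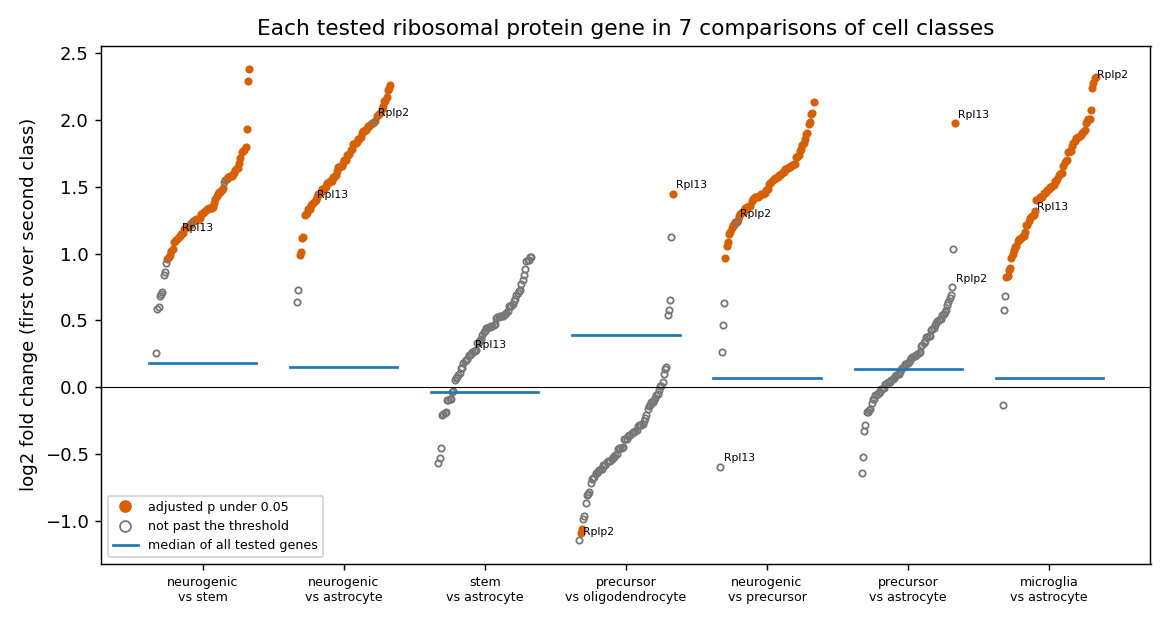
Log2 fold change (y axis) of each tested ribosomal protein gene in 7 comparisons of cell classes (x axis, first class over second), ordered by size; filled points passed an adjusted p of 0.05 and blue lines mark the median of all tested genes. Rplp2 is left out of both comparisons with stem cell-like cells, which held no count of it. Nearly all genes are filled in the comparisons of neurogenic cells with glia and of microglia-like with astrocyte-like cells, and Rpl13 stands apart at the top of the comparisons of precursor-like with mature oligodendrocyte-like and with astrocyte-like cells.

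Between the 2 ends of the oligodendrocyte path, precursor-like and mature cells, the summed share did not change in a fixed direction. The ratio of precursor-like to mature oligodendrocyte-like share was 0.915, 0.805 and 1.19 in experiments 1, 3 and 5. In experiment 3 the classes came largely from different plates, with 9 of 10 mature cells from plates D and E and 16 of 18 precursors from plate F. Of the 76 genes, 1 was higher in precursor-like cells and 2 lower, where 14.7% of all genes were higher and 9.76% lower. The median of the 76 was -0.39 against 0.39 over all genes. The higher gene was Rpl13. The lower ones were Rpl28, at 206, 174 and 148 CPM in precursors and 322, 272 and 919 CPM in mature cells (log2 fold change -1.09 ± 0.38, edgeR adjusted p = 0.022), and Rps14 (-1.06 ± 0.39, edgeR adjusted p = 0.033). The number of lower calls ran from 0 to 12 over the alternative settings.

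Rpl13, a protein of the large subunit on chr8:123102350-123105244 of GRCm38, was the exception of the family. It stood at 2277, 2627, 1673, 2068 and 2718 CPM in precursor-like cells of experiments 1 to 5, at 2232 CPM in those of the Nestin-GFP library and at 2085 CPM in those of the old library. Astrocyte-like cells held 362, 516, 568, 546 and 504 CPM, and mature oligodendrocyte-like cells 609, 830 and 668 CPM in experiments 1, 3 and 5. Every precursor-like value lay above every astrocyte-like, stem cell-like, microglia-like and mature oligodendrocyte-like value of the niche experiments. Cells of unnamed clusters reached more, with 3960, 3006 and 2922 CPM in experiments 1, 4 and 5 and 3355 CPM in the old library, where Rpl13 made up 2.21% to 2.41% of their ribosomal protein transcripts. The log2 fold change was 1.97 ± 0.30 against astrocyte-like cells (edgeR adjusted p = 4.3e-09) and 1.45 ± 0.37 against mature oligodendrocyte-like cells (edgeR adjusted p = 0.00088). The former held in all 25 alternative settings, with values from 1.47 to 2.34, and the latter was lost with at least 2000 transcripts per cell and without cells holding markers of a second family.

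**Figure D4:**
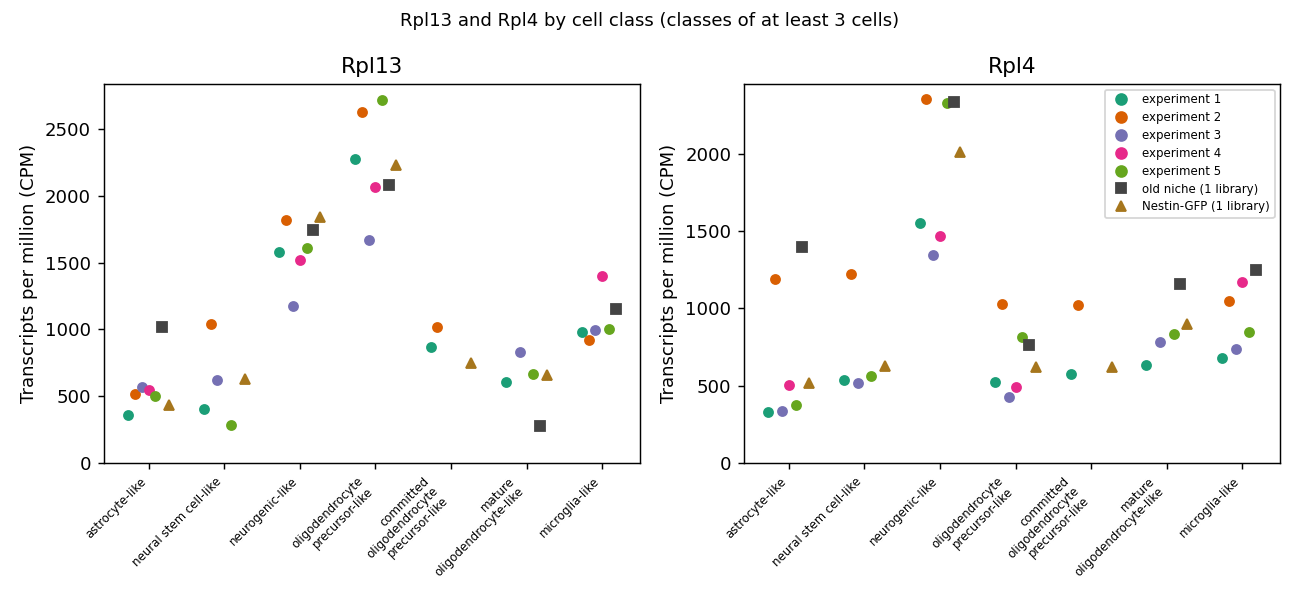
Rpl13 (left) and Rpl4 (right) in CPM (y axis) by cell class (x axis); circles are niche experiments, squares the old library and triangles the Nestin-GFP library. Among the named classes drawn, Rpl13 is highest in precursor-like cells, whereas Rpl4 is highest in neurogenic cells.

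No other ribosomal protein gene was called between precursor-like and astrocyte-like cells. There, 1 of 76 was higher and 0 lower, where 13.2% of all genes were higher and 12.4% lower, and the median was 0.19 against 0.13 over all genes. The median ran from -0.15 to 0.41 over the settings, and library size scaling or a fit with only these classes called 8 higher genes. Library size scaling also shifted the median of all genes by 0.21, and 63% of all calls were then higher in place of 51.6%. Rpl13 made up 10.6%, 8.83%, 6.61%, 6.09% and 10.5% of ribosomal protein transcripts in precursor-like cells of experiments 1 to 5, and 1.25% to 3.77% in the other classes with at least 5 cells. The 2 clusters of precursor-like cells both showed this, with 1662 to 2631 and 1697 to 2834 CPM over the experiments.

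Rpl13 stood lower than in precursors in each source with at least 3 committed oligodendrocyte precursor-like cells, the stage between precursors and mature oligodendrocytes. These cells were few. They held 865 CPM in the 8 cells of experiment 1, 1016 in the 4 cells of experiment 2 and 746 in the 3 cells of the Nestin-GFP library, each below the precursors of the same source. These levels rest on 21, 21 and 6 transcripts of Rpl13. Experiments 3, 4 and 5 held 1 such cell each, at 1294, 2819 and 802 CPM, of which that of experiment 4 lay above the precursors. The single cells held 6, 27 and 1 transcripts of Rpl13. In a comparison that admitted classes of at least 3 cells and rested on 2 experiments, Rpl13 fell by 1.76 on the log2 scale (SE 0.46, edgeR adjusted p = 0.0086) and Rplp1 rose by 1.41 (SE 0.42, edgeR adjusted p = 0.033). These were the only ribosomal protein genes called of 76, where 1.02% of 6155 genes were higher and 2.75% lower. The median of the 76 was 0.25 against -0.61 over all genes. The summed share in committed precursor-like cells was 3.54% and 4.63% in experiments 1 and 2. Precursor-like cells held 2.15% and 2.97% there, and mature oligodendrocyte-like cells 2.35% and, in 2 cells, 2.48%. In the Nestin-GFP library the committed cells held 2.97%, against 2.22% and 2.82%. The single cells of experiments 3 and 4 held 3.63% and 6.20%, above the precursors, and that of experiment 5 held 1.60%, below them.

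Reads of Rpl13 may not all come from this gene. Of the 75-base windows in the last 300 bases of its transcript, 81.4% occur in 8 other annotated genes, among them Gm12918, Gm15710, Rpl13-ps3 and Rpl13-ps6. Snord68, Mir7079 and Gm20388 lie within or over it. The sources used here do not say how such reads were assigned, and the part of these copies in the Rpl13 level was not tested. The same holds more widely, since 54 of 83 ribosomal protein genes shared at least 1 such window with another gene, 33 shared 50% or more, and Rpl9, Rpl10, Rpl36a and Rps27 shared all. Rpl4, Rpl5, Rpl12, Rpl28 and Rpsa shared none.

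Neurogenic and precursor-like cells, both of them immature, differed across the family. Of 76 ribosomal protein genes, 71 were higher in neurogenic cells and 0 lower, where 14.1% of all genes were higher and 15.5% lower, with a median log2 fold change of 1.48 against 0.07 over all genes. Of the 76, 69 were higher in each of the 5 experiments, which was not counted for all genes. Of the 15 dissociation response genes, 2 were higher and 5 lower in neurogenic cells, with sums of 4744 to 9903 CPM against 2839 to 15824 CPM in precursor-like cells, and their part in the result was not tested. Rpl12, which sits at the base of the stalk, changed the most. It stood at 802, 922, 672, 801 and 964 CPM in neurogenic cells and at 223, 208, 149, 182 and 148 CPM in precursor-like cells (log2 fold change 2.14 ± 0.31, edgeR adjusted p = 9.1e-10), and the groups did not overlap. Rps19, a gene mutated in Diamond-Blackfan anaemia, stood at 770 ± 213 against 176 ± 86.2 CPM (2.05 ± 0.31), and Rpl32 at 937 ± 136 against 234 ± 93.1 CPM (2.04 ± 0.30). The genes that did not pass were Rpl7l1, Rpl13, Rpl22l1, Rplp2 and Rps27l. Rpl13 had the opposite sign, as it was lower in neurogenic cells in all 5 experiments (1582, 1817, 1177, 1518 and 1606 CPM, log2 fold change -0.60 ± 0.28, edgeR adjusted p = 0.10), and it passed with DESeq2, with only these classes in the fit and without experiment 2.

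**Figure D5:**
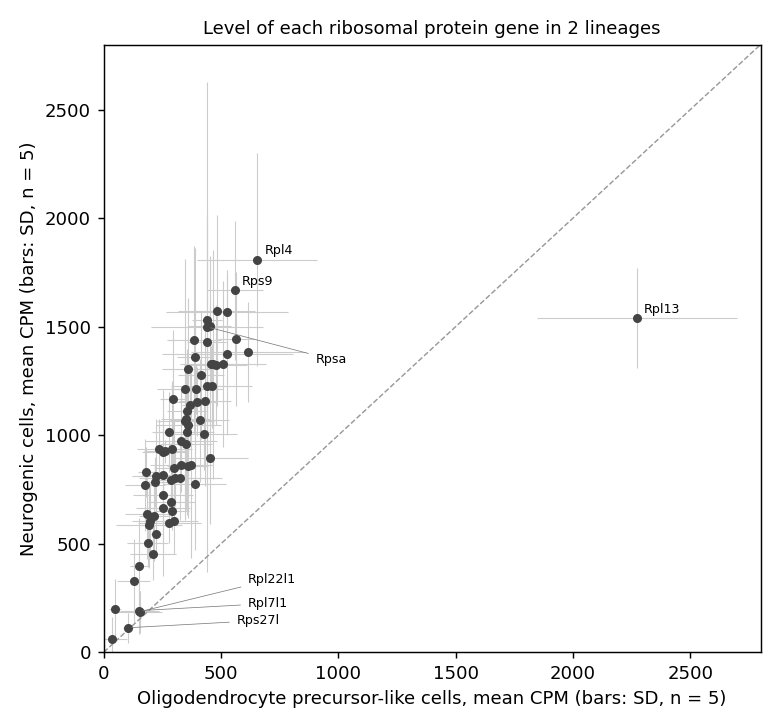
Mean level of each tested ribosomal protein gene in oligodendrocyte precursor-like cells (x axis, CPM) and neurogenic cells (y axis, CPM), with SD over 5 experiments as bars; the dashed line marks equal levels. Rpl13 alone lies well below the line, and the remaining genes lie on or above it.

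Microglia-like cells shared the higher level of these genes without being of the neural lineage. Of the 76, 73 were higher than in astrocyte-like cells and 0 lower, where 22.8% of all genes were higher and 21.1% lower, with a median log2 fold change of 1.49 against 0.07. Rps12, at 1054, 1093, 1339, 1583 and 881 CPM in microglia-like and 121, 349, 302, 362 and 276 CPM in astrocyte-like cells, changed the most (2.32 ± 0.31, edgeR adjusted p = 1.5e-11). Rps29 reached 1230, 1432, 2340, 1944 and 1209 CPM in microglia-like cells, and Rpl10, which joins the large subunit late in its assembly, 1525, 1276, 1294, 1375 and 1728 CPM. Rpl27, Rpl7l1 and Rps27l did not pass. Of the 15 dissociation response genes, 14 were higher in microglia-like cells, with sums of 14427 to 48719 CPM against 823 to 6913 CPM in astrocyte-like cells, and their part in the ribosomal protein result was not tested.

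By mean level over the experiments, and among the 6 named classes tested, 70 of the 76 genes were highest in neurogenic cells. This was not counted for all genes. Rpl10, Rpl22l1, Rpl27a, Rplp1 and Rps29 were highest in microglia-like cells and Rpl13 in precursor-like cells. The lowest class was astrocyte-like for 54 genes, mature oligodendrocyte-like for 11, stem cell-like for 6, precursor-like for 4 and microglia-like for 1. The rank order of the genes was nevertheless similar, with Spearman correlations of 0.67 to 0.90 between pairs of the 6 classes over the 76 genes, given as a description, since genes share libraries and depth and are not independent. The 10 most abundant genes, among them Rpl13, Rpl4, Rps9 and Rpl10, took 20.1% of ribosomal protein counts in neurogenic cells and 25.8% in precursor-like cells. These comparisons share their astrocyte-like, precursor-like and neurogenic samples with each other, so they are not independent.

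Paralogs within the family differed in the comparisons they passed. Rpl22, an RNA-binding protein of the large subunit, stood at 398, 600, 561, 608 and 561 CPM in neurogenic cells, 87.6, 136, 132, 135 and 179 CPM in astrocyte-like cells and 186, 263, 224, 211 and 222 CPM in precursor-like cells. It was higher in neurogenic cells by 1.86 ± 0.32 and 1.29 ± 0.30 (edgeR adjusted p = 2.3e-07 and 0.00017). Its paralog Rpl22l1 stood at 214, 15.9, 221, 242 and 241 CPM in neurogenic cells and passed in no comparison with them (0.72 ± 0.38 against astrocyte-like cells, edgeR adjusted p = 0.12), while it was higher in microglia-like than in astrocyte-like cells (1.40 ± 0.38). Rpl7 was higher in neurogenic than in stem cell-like cells by 1.68 ± 0.38 and Rpl7l1, which is known for a part in ribosome assembly, had 0.84 ± 0.51 (edgeR adjusted p = 0.26). The difference between paralogs was not itself tested, and Rpl22l1 and Rpl7l1 had lower counts than their partners. Rpl3, Rpl10, Rpl39 and Rps4x were higher in neurogenic cells in all 3 comparisons, and their paralogs Rpl3l, Rpl10l, Rpl39l and Rps4l had too few counts to be tested. Against stem cell-like cells the call of Rpl10 (edgeR adjusted p = 0.046) was lost in 18 of 25 alternative settings and that of Rpl3 in 11.

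Other genes of translation are given beside the share of all genes called higher, which was 10.8% against stem cell-like and 14.1% against precursor-like cells. Fau, which encodes a ribosomal protein fused to a ubiquitin-like protein and lies outside the symbol rule, was higher in neurogenic than in stem cell-like cells by 1.2 ± 0.40 and than in precursor-like cells by 1.58 ± 0.31. Of 15 translation elongation and other terminal oligopyrimidine genes, 11 were higher and 1 lower against stem cell-like cells, with a median of 1.36, and 13 were higher and 0 lower against precursor-like cells, with a median of 1.38. Among them the poly(A)-binding protein gene Pabpc1 was higher by 1.95 ± 0.42 and 1.64 ± 0.30, and the elongation factor gene Eef2 by 1.86 ± 0.39 and 1.57 ± 0.29. The lower gene was Vim (-1.18 ± 0.41), an intermediate filament of stem cells and astrocytes. Of 30 translation initiation genes, 5 were higher against stem cell-like cells (Eif3a, Eif3e, Eif4a1, Eif4b and Eif4g2) and 8 against precursor-like cells, with medians of 0.90 and 0.52. These shares are 16.7% and 26.7%. Of 18 ribosome biogenesis genes, 3 (Ddx21, Ncl and Nop56) and 4 (Ebna1bp2, Ncl, Nop10 and Nop56) were higher, with medians of 0.74 and 0.59, which is 16.7% and 22.2% of the list. Against stem cell-like cells both shares lay near the 10.8% of all genes called higher. In that comparison 0 genes of either list were lower, where 10.8% of all genes were lower. Both medians lay above the 0.18 of all genes.

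Few mitochondrial ribosomal protein genes, which serve the separate ribosomes of mitochondria, passed the test. Of 23, 0 were called in either direction against stem cell-like cells (median 0.19, 3 at an unadjusted p under 0.05), 2 were higher and 2 lower against astrocyte-like cells (median -0.03, where 21% and 18.8% of all genes were called), and 1 was higher and 1 lower against precursor-like cells (median 0.21). Of 32 proteasome genes, 5 (15.6%) were higher against stem cell-like cells, near the 10.8% of all genes called higher, and 0 were lower. Their median was 0.58, and 0.18 over all genes. Among 11 mTOR and Myc regulators, 0 were called against stem cell-like cells by edgeR, also at an unadjusted p under 0.05. There were 2 higher and 0 lower against astrocyte-like cells, and 2 higher and 1 lower against precursor-like cells. Mycn, a transcription factor of neural progenitors, was higher in neurogenic than in astrocyte-like and precursor-like cells, by 3.57 ± 0.60 and 2.59 ± 0.51 (edgeR adjusted p = 1.3e-07 and 9.4e-06). Mycl1 was higher in precursor-like and in neurogenic than in astrocyte-like cells, by 4.38 ± 0.82 and 2.95 ± 0.91, and lower in neurogenic than in precursor-like cells (-1.43 ± 0.52, edgeR adjusted p = 0.027). Astrocyte-like cells had counts of Mycn and Mycl1 only in experiment 4, at 53.4 and 17.8 CPM. The changes of both genes against them therefore rest on values near the floor. Mycl1 also stood at 0 CPM in precursor-like cells of experiment 3 and in neurogenic cells of experiments 1 and 3. Larp1, a regulator of oligopyrimidine mRNAs, was higher in neurogenic than in precursor-like cells by 0.90 ± 0.34. Eif4ebp1, an mTOR target that holds back translation initiation, was lower in precursor-like than in astrocyte-like cells (-2.41 ± 0.90), but its levels lay near the floor. In experiments 1 to 5 they were 32.8, 0, 24.1, 17.8 and 65.0 CPM in astrocyte-like and 6.63, 2.59, 0, 0 and 0 CPM in precursor-like cells. Along the oligodendrocyte path, 0 of the 15 elongation and oligopyrimidine genes were higher in precursor-like cells and 2 lower, with a median of 0.03, where 9.76% of all genes were lower. The lower ones were Eef1a1 (-0.91 ± 0.35) and Tpt1 (-1.0 ± 0.35).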

How the data were processed

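The authors deposited estimated counts: transcripts of each gene in each well, after correction for saturated molecular identifiers. Reads had been aligned to mm10 with BWA 0.6.2-r126, per the submitters' processing notes, and the sources used here give neither annotation nor counting tool. Inverting the saturation formula with pools of 256 or 4096 identifiers gave whole numbers of identifiers, within 0.05, for nearly all values. Spike-ins and mitochondrial rows were left out. Wells under 1000 transcripts were dropped, and no 2 of 2089 cells had the same counts.

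The identifiers of each cell were divided at random (seed 1) into 2 sets. The first, without the ribosomal protein genes, was used to cluster the cells (scale of 10000, 2000 variable genes, 30 components, 15 neighbours, Leiden resolution 1) and to name them from 16 marker sets (a score of 0.5 or more and 3 or more markers found in 10% of cells). The naming rules were set after clusters and markers had been seen. No doublet caller was run. An alternative left out 632 of 1738 cells with at least 3 markers of a second family.

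Identifiers of the second set, each at the number of transcripts the correction gives it, were summed per experiment and class (at least 5 cells), rounded and tested in a single fit with edgeR 4.0.16 in R 4.3.3 (TMM, filterByExpr, quasi-likelihood F test, experiment as a block, Benjamini-Hochberg over 6044 genes, threshold 0.05). The labels' experiment number marks a shared batch and was the block, although an experiment can hold several plates and its classes can come from different ones. With experiment as a block, the p-values rest on how differences between classes vary between experiments, which may be technical. This spread was estimated over all classes in the fit. It was also drawn strongly towards the value shared by genes (220 prior against 17 residual degrees of freedom), so it is little of a gene's own. In simulated counts, 4-fold changes were recovered at 64.9% for neurogenic against stem cell-like cells (4326 genes) and 93.5% for neurogenic against precursor-like cells (4369 genes), and 2-fold changes at 7.50% and 20.2%. DESeq2 1.42.0 was an alternative. Intervals of shares cover counting error only, and none are printed. CPM is per 1000000 transcripts of a class in an experiment.

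Named genes are, per comparison, the 10 largest called changes that had the same sign in every experiment, the 10 most abundant, the 3 smallest changes, called genes against the median's direction, the paralog pairs, Fau and up to 4 genes of each other list. Others were named after their values were seen, and some genes that the rule names are not reported here. The ribosomal protein genes and the lists were chosen with earlier results of these data known.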

Additional observations from a re-analysis of the deposited data

Results flagged for a closer look

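In 44 groups of 4 or 5 experiments tested for a value far from the others, 3 were found, where chance gives about 1 in 20. Rpl10 in precursor-like cells of experiment 4 stood at 1048 CPM, above 449 to 568 CPM in the other experiments. That group held 5 cells. Rpl22 in neurogenic cells of experiment 1 stood at 398 CPM, below 561 to 608 CPM. Rpl22l1 in neurogenic cells of experiment 2 stood at 15.9 CPM, below 214 to 242 CPM. It was also low in the other classes of experiment 2, at 0 CPM in astrocyte-like and 2.59 CPM in precursor-like cells, and at 0 CPM in the old and Nestin-GFP libraries.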

How the results depend on the processing

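Over 25 alternatives, neurogenic cells had 63 to 75 higher ribosomal protein genes against astrocyte-like and 61 to 72 against precursor-like cells, and no direction of a called gene reversed. Against stem cell-like cells the 65 higher genes became 42 with DESeq2, 33 with no replicate block (experiment not used as pairing), 24 without mixed cells and 18 to 62 with 1 experiment left out. Lower genes against precursor-like cells became 1 (Rpl13) with DESeq2, in a fit of only these classes and without experiment 2 (0 to 1 with an experiment left out). For precursor-like against astrocyte-like cells, higher genes became 8 with library size scaling, 8 in a fit of only these classes, 2 with seed 2 and 1 to 2 with an experiment left out, and 1 lower gene was called with DESeq2. For precursor-like against mature oligodendrocyte-like cells, higher genes became 0 with at least 2000 transcripts, 2 with library size and 0 without mixed cells. Lower genes there became 12 with all counts and with at least 10 cells, 1 with at least 2000 transcripts, at resolution 1.5, with library size, in a fit of only these classes, without mixed cells and without plates D and E, 0 with at least 500 transcripts, with no low-count filter, with no replicate block and with seeds 2 and 3, and 0 to 11 with an experiment left out. For stem cell-like against astrocyte-like cells, 2 genes were higher with library size and in a fit of only these classes. Microglia-like cells had 47 higher genes with at least 500 transcripts, where the log2 ratio of summed shares was 0.82, against 0.13 for precursor-like and 0.13 for stem cell-like over astrocyte-like cells. The log2 ratio of precursor-like to mature oligodendrocyte-like share, -0.06 in the report, was 0.045 with at least 500 transcripts, 0.057 at resolution 1.5, 0.10 with seed 2, 0.14 with seed 3, and 0.064 without plates D and E, and -0.22 to 0.064 with an experiment left out. The causes were not tested. Leaving out plates D and E was chosen after seeing the data, as was leaving out plate H. The committed precursor comparison with at least 5 cells had 1 experiment and could not be run, nor could late against early neuroblast-like cells. In simulated counts, 2-fold changes of single genes were seldom recovered. Depth was not varied there, so its part in this was not tested.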

Other observations

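The highest shares of ribosomal protein transcripts lay in a cluster that was given no name, led by Ccr7, Itgal, Cytip, Gimap3, Lck, Lat and Cd2, which are genes of lymphocytes. Its share was 22.98% in 13 cells of experiment 1, 17.86% in 16 cells of experiment 2, 13.84% in 14 cells of experiment 4, 20.50% in 7 cells of experiment 5 and 20.39% in 15 cells of the old library. Each value exceeded that of every named class with at least 5 cells. Median depth in these cells was 2183, 4762, 12303, 2035 and 5088 transcripts. A second unnamed cluster, led by Reln, Rgs4 and Ndnf, held 4.22% in 39 cells of experiment 2, 4.35% in 13 cells of experiment 3 and 3.72% in 18 old cells. Neither cluster entered a comparison.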
